A study of Drosophila melanogaster with 30 samples.

Results

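Lines of *D. melanogaster* bred for avoidance of cyclohexanone, called CYC-, were compared with unselected control lines by the RNA of their heads. The comparison takes the samples labelled low for cyclohexanone and those labelled control, 12 of the 30 samples of the series, with 3 lines of each kind and 2 samples per line. Both kinds of line descend from an outbred population made by intercrossing inbred lines of the *Drosophila* Genetic Reference Panel. In each of 30 generations, CYC- parents were the flies found on the side of a T-maze away from cyclohexanone, a volatile ketone, at 0.01%, while control parents came from a maze that held no odor and from a side drawn at random. Every sample is a pool of heads of 100 females aged 3 to 7 days, so the RNA of antennae, eyes, brain and head fat was read together. The 2 samples of a line are separate pools of the same population, so the p-values below treat as independent what the selection joined, and the selected populations themselves number 3 against 3. The question the comparison addresses is which transcripts differ in the heads of flies bred for this avoidance.

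A fly detects odors with neurons in hair-like sensilla on the antenna and maxillary palp. Odorant-binding proteins are secreted into the fluid around the dendrites, and odorant receptors or ionotropic receptors sit in the ciliated dendrites, which are built by transport along microtubules. Cytochrome P450 enzymes, glutathione S-transferases, UDP-glycosyltransferases and esterases alter small foreign molecules, hormones and, in antennae, odorants. Selection changes the frequency of alleles in a whole population, and 3 lines kept apart for many generations also diverge from each other by drift, so the lines are shown separately wherever the results turn on them.

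The 12 samples held between 21194086 and 38621924 counted reads. Of 17471 genes in the files, 9240 had 1 CPM (counts scaled to a library total of 1e6) or more in at least 15 of the 30 samples and were tested. Markers of photoreceptors (*ninaE*, *norpA*, *trp*, *Arr2*) summed to between 40067 and 55786 CPM in every sample, and those of neurons, glia and antenna also stayed within narrow ranges. The midgut markers varied from 6.69 to 217 CPM in sum, in both groups. The ovary markers stayed at or under 6.52 CPM in sum, and the male markers *Mst84Da* and *Acp70A* (sex peptide) were at 0 or at most 0.04 CPM. The noncoding RNAs *roX1* and *roX2*, also listed as male markers, were at 2.19 to 5.23 and 0.26 to 0.78 CPM in every sample. One set of samples stood apart. On the first principal component of the 12 samples, which holds 35.3% of the variance, the second samples of CYC- lines 1, 2 and 3 lay at 15.94, 33.64 and 25.43, and the other 9 samples between -14.58 and 2.26. The 5 markers of the female head fat body, *fit*, *Obp99b* and the yolk protein genes *Yp1*, *Yp2* and *Yp3*, summed to 58100 to 66100 CPM in the first CYC- samples and 18700 to 28100 CPM in the second, against 47300 to 72100 and 38100 to 46300 CPM in the first and second control samples. In pooled heads, fewer cells of a type and less RNA per cell cannot be told apart. None of these 5 genes was called in the comparison, but without the first CYC- samples *Yp3* had a log2 fold change of -1.53 (adjusted p = 0.024) and *fit* one of -1.72 (adjusted p = 0.032). The part of these 3 samples in each result was not tested beyond fits that leave them out, and those fits are given beside some of the results.

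**Figure D1:**
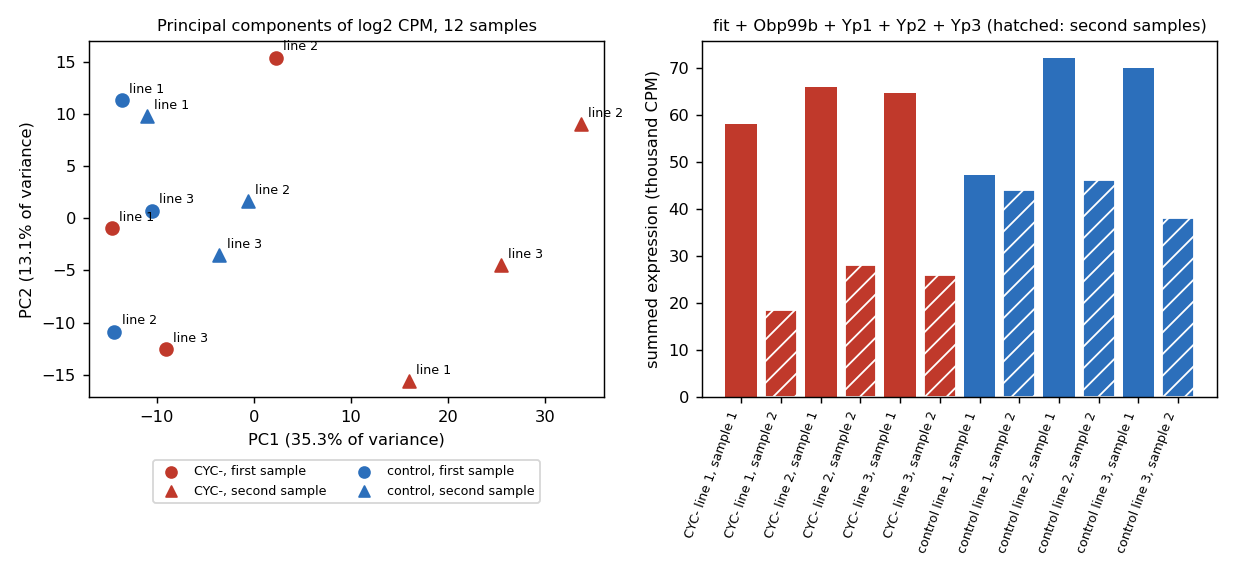
The 12 samples on principal components 1 and 2 of their log2 CPM (left, circles for first and triangles for second samples of a line) and the summed expression of the 5 female head fat body markers in each sample (right, bars in kilo-CPM, hatched for second samples). The second samples of the 3 CYC- lines lie apart from the other 9 on component 1 and have the lowest marker sums, 18700 to 28100 CPM.

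In total, 346 genes were called at an adjusted p under 0.1, of which 132 were higher and 214 lower in CYC-. These are 3.74%, 1.43% and 2.32% of the genes tested. Most differences were small. The log2 fold change was under 0.5 in size for 230 of the 346 genes, with a median of 0.34 for the higher and -0.40 for the lower ones, and only 10 higher and 21 lower genes differed by 1 or more. The 3 CYC- line means lay wholly outside the 3 control line means for 303 of the 346 genes (108 higher and 195 lower), while 17% of all tested genes had line means apart in this way. All 6 samples lay apart for 118 called genes (41 higher and 77 lower), against 1.62% of all tested genes. Leaving out each of the 6 lines in turn, 55 genes were called every time and 16 in none of the 6 fits.

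The number called rested heavily on which CYC- samples were used. Without the second CYC- samples 64 genes were called (29 higher and 35 lower, 0.693% of those tested), 50 of them among the 346. Without the first CYC- samples 1034 genes were called (428 higher and 606 lower, 11.2%), and these include 266 of the 346. All 346 genes kept their sign in both fits. The genes called in all 3 fits numbered 34, with 14 higher and 20 lower. The statements below give these fits for some of the genes only, so a gene named without them may have lost its call there. Between the first samples alone 3 genes (0 higher and 3 lower) were called. With the 2 libraries of each line summed, so that a line counts once, 42 genes were called (11 higher and 31 lower). Of the 104 genes named, 22 kept their call in that fit. It called no member of the heat shock, glutathione S-transferase, odorant-binding protein, antimicrobial peptide and photoreceptor lists described below.

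The widest difference was in *otu* (ovarian tumor), which encodes a deubiquitinase-domain protein needed in egg formation. The gene lies on the X chromosome of the release 6 genome, from 8485008 to 8489535. Its level ran from 0.791 to 5.93 CPM in the 6 CYC- samples (median 3.14) and from 34.7 to 62.4 CPM in the 6 control samples (median 43), and the groups were far from overlapping (log2 fold change -3.75 ± 0.91 SE, adjusted p = 0.034). CYC- line 1 was lowest, with 1.08 and 0.791 CPM in its 2 samples, and lines 2 and 3 held 3.0 to 5.93 CPM. Without the second CYC- samples the log2 fold change was -4.16 and the adjusted p 0.21, so the size of the difference stayed while the call did not. The call was also lost without CYC- line 1 (adjusted p = 0.14) and with the 2 libraries of each line summed (adjusted p = 0.28). The eggshell genes *Cp7Fa* and *Cp7Fb*, which code for chorion proteins, lie beside it with no tested gene between, and the 3 genes together span 18648 bases. *Cp7Fb* ran from 0.604 to 0.967 CPM in CYC- (median 0.745) and from 1.31 to 2.47 CPM in the control (median 1.96), a log2 fold change of -1.34 (adjusted p = 0.0021), and it was also called without the second CYC- samples (-1.23, adjusted p = 0.082). *Cp7Fa* averaged 1.32 ± 0.203 against 2.32 ± 0.158 CPM (mean ± SD of 3 line means; log2 fold change -0.81, adjusted p = 0.0069). The samples of the groups stayed apart for all 3 genes. The ovary markers *osk*, *nos*, *vas*, *bcd*, *Cp36* and *Vm26Aa* summed to 0.173 to 1.47 CPM in CYC- and 0.846 to 6.52 CPM in the control. The control sample with 6.52 CPM of these markers, the first of line 3, held 39.7 CPM of *otu*. The part of ovary RNA in these differences was not tested.

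Apart from *otu*, the lower genes with the largest changes were *CG30083*, *CG5653*, *ACXD*, *Oseg2* and *TotX*. *CG5653* (chromosome 3L, 8964912 to 8966374) shared with *f* the smallest adjusted p of the comparison and ran from 3.14 to 5.87 CPM in CYC- (median 4.05) and from 7.63 to 32.3 CPM in the control (median 28), a log2 fold change of -2.45 ± 0.27 (SE, adjusted p = 4.91e-06). It was called in each line and without the second CYC- samples, and its lowest control sample still lay above its highest CYC- sample. *Oseg2*, an intraflagellar transport gene of ciliated neurons, and *ACXD*, an adenylyl cyclase gene, lie 2354 bases apart on chromosome 3L. *Oseg2* ran from 4.45 to 7.2 CPM in CYC- (median 6.22) and from 12.8 to 44.3 CPM in the control (median 22.7), a log2 fold change of -2.01 ± 0.34 (SE, adjusted p = 0.0021) and was also called without the second CYC- samples (-2.15, adjusted p = 0.047). *ACXD* averaged 3.89 ± 0.613 against 17.9 ± 3.72 CPM (log2 fold change -2.20 ± 0.44 SE, adjusted p = 0.0071). In both genes all 3 CYC- lines fell by similar amounts, with line log2 fold changes of -2.02, -2.04 and -1.76 for *Oseg2* and -2.47, -2.10 and -2.02 for *ACXD*. *CG30083* ran from 0.315 to 2.25 CPM in CYC- (median 1.02) and from 3.35 to 14.9 CPM in the control (median 4.69), a log2 fold change of -2.78 ± 0.69 (SE, adjusted p = 0.037). Its first CYC- samples held 1.56 to 2.25 CPM and its second CYC- samples 0.315 to 0.474 CPM, so the second samples lay lower in every line. *TotX*, a secreted stress peptide of the Turandot family, ran from 1.13 to 10.7 CPM in CYC- (median 3.54) and from 10.9 to 25.6 CPM in the control (median 13.9), a log2 fold change of -1.74 ± 0.44 (SE, adjusted p = 0.041), with line log2 fold changes of -1.28, -1.88 and -2.13. *TotX* was not called without CYC- lines 2 or 3 or control line 1 (adjusted p 0.10 to 0.13), and *CG30083* was not called without CYC- line 2 or control line 1 (adjusted p 0.13 to 0.21). Without the second CYC- samples *ACXD* (-1.93, adjusted p = 0.19), *CG30083* (-2.01, adjusted p = 0.38) and *TotX* were not called.

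Among the higher genes with line means apart and 2 CPM or more, the largest changes ran from 1.11 to 1.41 on the log2 scale. *Cyp6a20*, the P450 gene whose loss is known to raise aggression in male flies, ran from 104 to 143 CPM in the 6 CYC- samples (median 126) and from 32.8 to 64.3 CPM in the 6 control samples (median 52.5), a log2 fold change of 1.28 ± 0.25 (SE, adjusted p = 0.0069). It rose in every line, with line log2 fold changes of 1.35, 1.41 and 1.08, and was called without the second CYC- samples as well (1.35, adjusted p = 0.053). *CG34134* and *CG8419* lie 15389 bases apart on chromosome 2L with 5 tested genes between them. *CG34134* averaged 43.3 ± 16.4 against 19.2 ± 3.36 CPM (log2 fold change 1.17 ± 0.34 SE, adjusted p = 0.075) and *CG8419* 13 ± 4.29 against 5.91 ± 2.13 CPM (log2 fold change 1.14 ± 0.27 SE, adjusted p = 0.028), and their line log2 fold changes were 1.71, 0.79 and 0.88 and 1.67, 0.91 and 0.88. Line 1 led in both genes. *CG15347* averaged 20.3 ± 7.21 against 7.65 ± 1.81 CPM (log2 fold change 1.41 ± 0.41 SE, adjusted p = 0.078), with 1.86, 1.49 and 0.77 in the lines, and *CG3777* averaged 7.07 ± 1.08 against 3.31 ± 0.691 CPM (log2 fold change 1.11 ± 0.27 SE, adjusted p = 0.035). *CG34134* and *CG15347* were called without the second CYC- samples as well (1.61, adjusted p = 0.053, and 1.95, adjusted p = 0.053), but not without the first CYC- samples (0.57, adjusted p = 0.37, and 0.56, adjusted p = 0.47). *CG8419* was not called without the second CYC- samples (1.15, adjusted p = 0.14) and was called without the first (1.14, adjusted p = 0.043). The call of *CG34134* was lost without CYC- line 1 or control lines 1, 2 or 3 (adjusted p 0.13 to 0.31), that of *CG15347* without CYC- lines 1 or 2 or control lines 1, 2 or 3 (adjusted p 0.14 to 0.23), that of *CG8419* without CYC- line 1 or control line 1 (adjusted p 0.14 to 0.17) and that of *CG3777* without CYC- line 3 or control lines 1 or 2 (adjusted p 0.10 to 0.13).

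**Figure D2:**
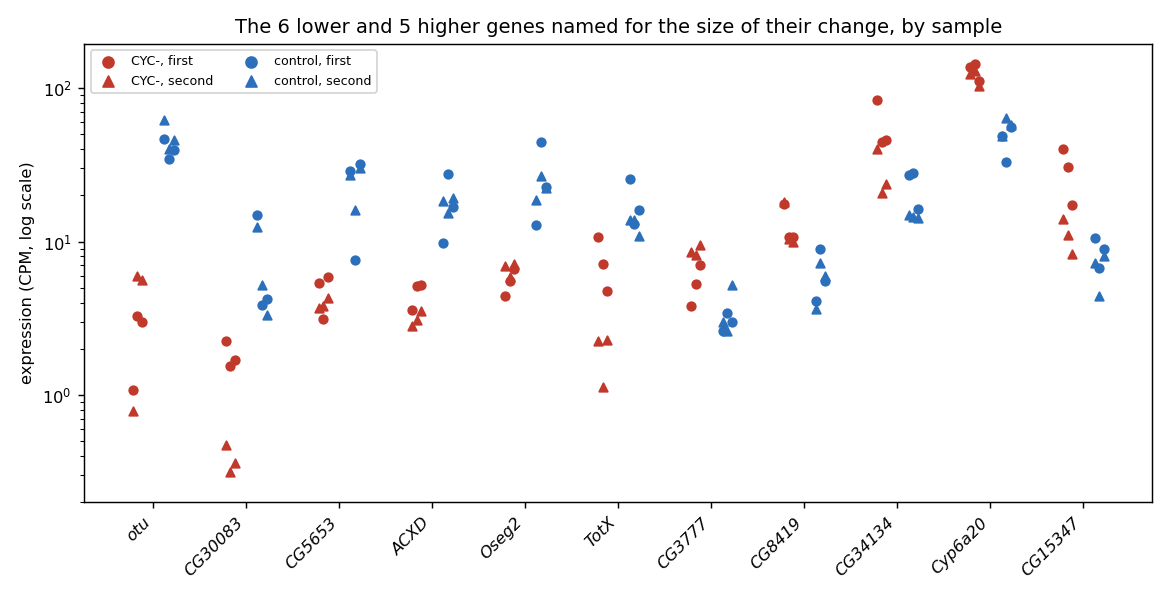
CPM on a log axis in each of the 12 samples for the 6 lower and 5 of the higher genes named for the size of their change, with CYC- in red, control in blue, circles for first and triangles for second samples. In *otu* the 6 CYC- samples lie between 0.791 and 5.93 CPM and the 6 control samples between 34.7 and 62.4 CPM, and in *Cyp6a20* every CYC- sample lies above every control sample.

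Further genes with the smallest p were called with and without the second CYC- samples. *f* (forked), which bundles actin in bristles, averaged 2.3 ± 0.598 against 5.93 ± 0.57 CPM (log2 fold change -1.36 ± 0.15 SE, adjusted p = 4.91e-06). *su(sable)*, a nuclear RNA-binding protein gene, fell by 0.53 (adjusted p = 0.0016), *CG9664* by 0.91 and *CG31809* by 1.22 on the log2 scale. *CG32706* (1.22), *CG12672* (1.03), *CG40486* (0.98), *CG13325* (0.94) and *CG30203* (0.76) rose. All 9 of these genes, *f* included, were called in each of the 6 fits that leave out a line.

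Heat shock protein genes, where called, were higher in CYC-. Of 17 measured members 3 were called, all higher (17.6%, beside 3.74% of all tested genes called and 1.43% called higher), and the list's median log2 fold change was 0.17 beside 0.0035 over all tested genes. *Hsp83*, the fly Hsp90 that folds signaling proteins, ran from 549.9 to 1348 CPM in the 6 CYC- samples (median 814) and from 378 to 666 CPM in the 6 control samples (median 449), a log2 fold change of 0.91 ± 0.25 (SE, adjusted p = 0.061). The groups overlapped, and line log2 fold changes were 1.47, 0.79 and 0.28 (adjusted p among the CYC- lines 0.27). Line 1 held 1348 and 1274 CPM in its samples, while both samples of line 3 lay within the control range. *DnaJ-1*, an Hsp40 that hands proteins to Hsp70, averaged 104 ± 24.1 against 77.5 ± 4.1 CPM (log2 fold change 0.43 ± 0.11 SE, adjusted p = 0.047), and *Hsp110*, which exchanges nucleotide on Hsp70, averaged 166 ± 13.9 against 136 ± 8.79 CPM (log2 fold change 0.29 ± 0.09 SE, adjusted p = 0.080). None of these 3 was called without the second CYC- samples, where the log2 fold change of *Hsp83* was 0.92 (adjusted p = 0.22). *Hsp83* was also not called without CYC- lines 1 or 2 or control lines 2 or 3 (adjusted p 0.12 to 0.38).

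Of 10 partners of Hsp83, a list drawn up after the values were seen, all 10 had positive log2 fold changes and 2 were called higher. These are 20% of the list, beside 3.74% of all tested genes called and 1.43% called higher. A list picked by its values does not show that the group moved together. *Fkbp59*, an immunophilin, ran from 77.9 to 98.4 CPM in the 6 CYC- samples (median 87.3) and from 62.2 to 72.8 CPM in the 6 control samples (median 70.4), without overlap (log2 fold change 0.34 ± 0.05 SE, adjusted p = 0.0012). It was called in every line, in each of the 6 fits without a line and without the second CYC- samples (0.42, adjusted p = 0.0023). *Stip1*, which bridges Hsp70 and Hsp90, averaged 66.1 ± 14.2 against 45.1 ± 7.31 CPM (log2 fold change 0.55 ± 0.15 SE, adjusted p = 0.053) with line log2 fold changes of 0.83, 0.59 and 0.20, largest in the line in which *Hsp83* was highest. The 7 measured subunits of the TRiC chaperonin, the ring that folds actin and tubulin, were picked in the same way, and all 7 had log2 fold changes between 0.10 and 0.26. *CCT2* (0.24, adjusted p = 0.050), *CCT3* (0.24, adjusted p = 0.096) and *CCT7* (0.25, adjusted p = 0.073) were called, none of them without the second CYC- samples. They make up 42.9% of this list, beside 3.74% of all tested genes called.

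The called cytochrome P450 genes were lower in CYC- with a single exception. Of 71 measured members 10 were called lower and 1 higher, 15.5% of the list against 3.74% of all tested genes. The list's median log2 fold change was -0.21, and 54 of the 71 values were negative. *Cyp6a14* changed most among the called lower ones and ran from 1.85 to 4.41 CPM in CYC- (median 2.83) and from 4.97 to 10.4 CPM in the control (median 7.17), with line log2 fold changes of -1.04, -1.23 and -1.68 (log2 fold change -1.31 ± 0.27 SE, adjusted p = 0.0090). *Cyp6a8* averaged 25.1 ± 5.81 against 42.9 ± 8.82 CPM (log2 fold change -0.77 ± 0.17 SE, adjusted p = 0.016), *Cyp6a21* 18.6 ± 2.08 against 26.8 ± 2.46 CPM (log2 fold change -0.53 ± 0.10 SE, adjusted p = 0.0069) and *Cyp4ac2* 26.1 ± 2.0 against 43 ± 6.42 CPM (log2 fold change -0.72 ± 0.22 SE, adjusted p = 0.090). *Cyp6a14*, *Cyp6a20* and *Cyp6a21* were called in each of the 6 fits without a line, and the other 8 lost their call in at least 1 of them. The adjacent pair *Cyp4e1* and *Cyp4e2* fell by 0.44 and 0.40, and *Cyp6w1*, *Cyp308a1*, *Cyp4d20* and *Cyp4p3* by 0.49, 0.34, 0.32 and 0.29.

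The lower P450 calls moved with the second CYC- samples. Without those samples 1 member was higher (*Cyp6a20*) and 0 lower, and without the first CYC- samples 3 were higher and 20 lower. With the 2 libraries of each line summed, 0 were called higher and 1 lower. The list's median log2 fold change was -0.03 without the second and -0.29 without the first CYC- samples. These second samples are the 3 in which the head fat body markers were lowest, and the part of that in the P450 calls was not tested. *Cyp6a20* and *Cyp6a8*, neighbors 3124 bases apart on chromosome 2R, moved in opposite directions. In the same group of genes on 2R, *Cyp6a22* (-0.51), *Cyp6a17* (-0.07), *Cyp6a9* (0.07) and *Cyp6a23* (-1.0) were not called. *Cyp6a23* differed among the CYC- lines, with line means of 20.5, 63.3 and 116 CPM in CYC- lines 1, 2 and 3 and 96.8, 136 and 168 CPM in the control lines (adjusted p = 1.29e-07). These genes resemble each other in sequence, and the counting of reads that match several of them is not stated, so values within the group are uncertain.

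**Figure D3:**
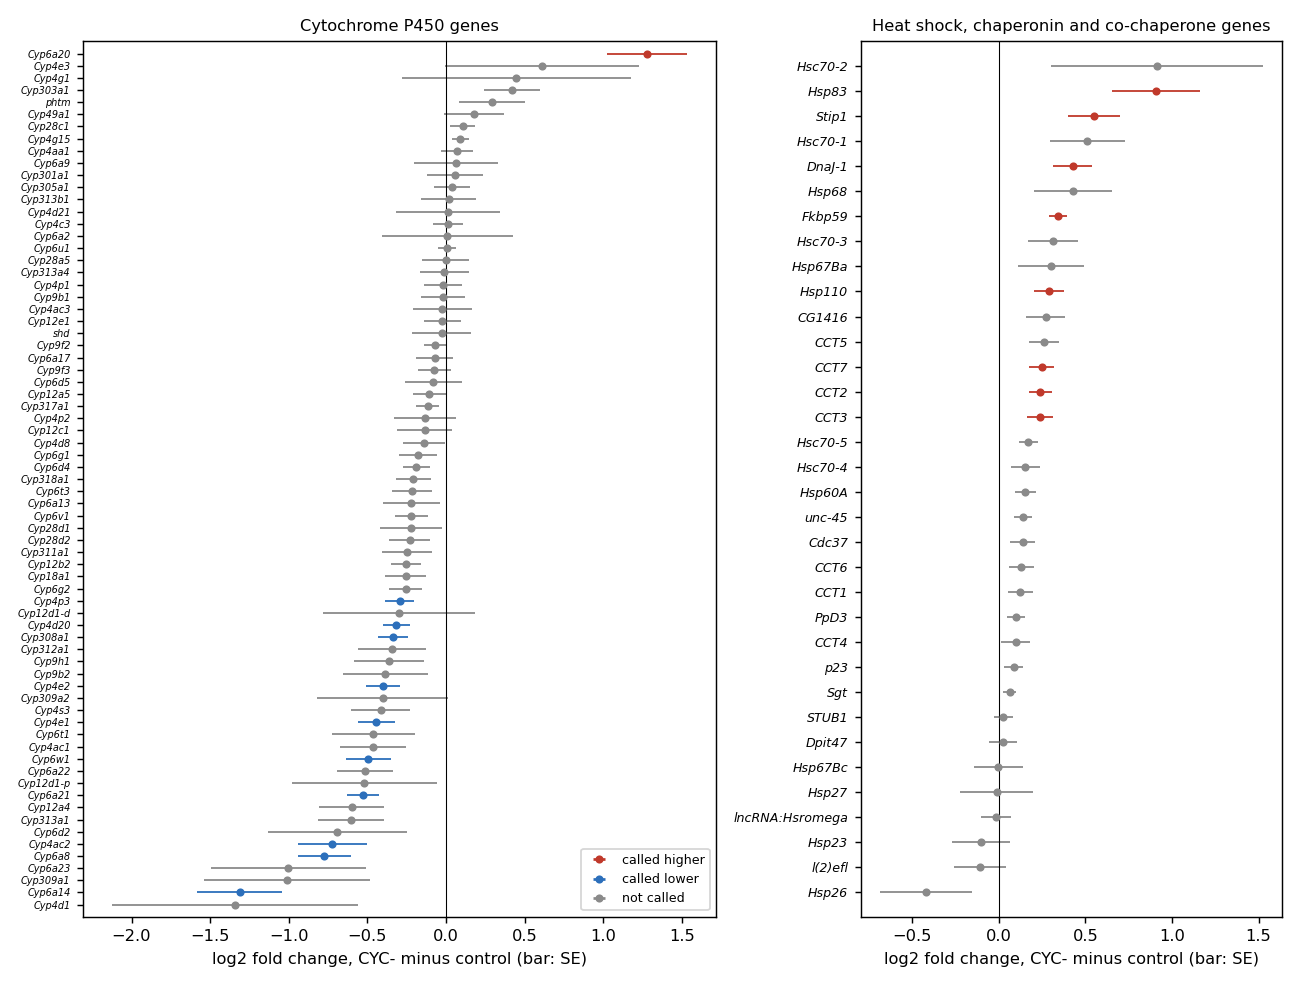
Log2 fold change of CYC- against control, with its SE as a bar, for each measured cytochrome P450 gene (left) and each measured heat shock, chaperonin and co-chaperone gene (right), with red for genes called higher, blue for called lower and gray for not called. Of 71 P450 genes 54 lie under 0 and *Cyp6a20* lies highest, while all 10 partners of Hsp83 and all 7 TRiC subunits lie above 0. The partner and TRiC lists were drawn up after the values were seen.

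Glutathione S-transferases and UDP-glycosyltransferases were called lower where they were called. *GstE5* (6.37 ± 1.19 against 11.8 ± 1.82 CPM, log2 fold change -0.89 ± 0.24 SE, adjusted p = 0.048) had line log2 fold changes of -0.90, -1.16 and -0.62. *GstE14*, which serves ecdysteroid synthesis, had line log2 fold changes of -0.33, -0.94 and -0.27 and *GstO3* of 0.03, -0.82 and -1.20, so line 1 did not share the drop of *GstO3*. These are the 3 called of 32 measured glutathione S-transferases (9.38%, beside 3.74% of all tested genes). Of 17 UDP-glycosyltransferases 1 was called (5.88%), *Ugt36F1*, at 4.93 ± 1.16 against 8.26 ± 0.63 CPM (log2 fold change -0.74 ± 0.17 SE, adjusted p = 0.022). None of the 4 was called without the second CYC- samples.

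Genes that bind or break down juvenile hormone, where called, were lower in CYC-. This hormone, made next to the brain, controls egg production and behavior of adult flies. In a list of 16 measured binding and degradation genes, assembled after the values were seen, 5 were called, all lower (31.2%, beside 3.74% of all tested genes). *Jhbp11* ran from 32.4 to 41.5 CPM in the 6 CYC- samples (median 36.2) and from 49.8 to 66.8 CPM in the 6 control samples (median 59.5), with no overlap (log2 fold change -0.69 ± 0.12 SE, adjusted p = 0.0022). It was called in each line, in each fit without a line, and without the second CYC- samples (-0.75, adjusted p = 0.036). *Jhbp12* averaged 10.1 ± 0.972 against 17.9 ± 1.97 CPM (log2 fold change -0.83 ± 0.16 SE, adjusted p = 0.0069). The epoxide hydrolase genes *Jheh2* and *Jheh3*, which are neighbors on chromosome 2R, had log2 fold changes of -0.25 (adjusted p = 0.052) and -0.29 (adjusted p = 0.080), and *Jhedup*, a copy of the juvenile hormone esterase gene, had -0.30 (adjusted p = 0.041). Of the 5, *Jhbp11* alone was called without the second CYC- samples. The wider list of 37 hormone signaling genes had 5 calls, of which *Jheh2*, *Jheh3*, *Jhbp11* and *Jhbp12* were lower and 1 was higher, *Hr96* at 0.15, a nuclear receptor known for its role in the response to foreign compounds.

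Among genes of odor detection, called genes made up 10.3% of the odorant-binding proteins, 8.33% of the ionotropic receptors and 5.26% of the odorant receptors, beside 3.74% of all tested genes. Of 29 measured odorant-binding proteins 3 were called, all lower. *Obp57b* ran from 20.8 to 45.8 CPM in CYC- (median 30) and from 38 to 52.3 CPM in the control (median 42.3), a log2 fold change of -0.49 ± 0.12 (SE, adjusted p = 0.030) and its neighbor *Obp57c* averaged 94.7 ± 8.41 against 117 ± 5.14 CPM (log2 fold change -0.30 ± 0.09 SE, adjusted p = 0.075). *Obp83b*, an abundant antennal binding protein also known as OS-E, averaged 170.2 ± 4.44 against 196 ± 10.9 CPM (log2 fold change -0.21 ± 0.06 SE, adjusted p = 0.072). Among 19 measured odorant receptors, *Or63a* was called higher, and ran from 4.98 to 8.43 CPM in CYC- (median 5.28) and from 2.51 to 4.97 CPM in the control (median 4.33), with no overlap (log2 fold change 0.57 ± 0.18 SE, adjusted p = 0.095). Its line log2 fold changes of 0.39, 0.32 and 0.98 differed among the CYC- lines (adjusted p = 0.066). Among 12 ionotropic receptors *Ir31a*, expressed in antennal neurons, was called lower (1.46 ± 0.283 against 2.09 ± 0.351 CPM, log2 fold change -0.51 ± 0.14 SE, adjusted p = 0.050). None of 9 gustatory receptors and none of 13 other antennal genes was called, and *Orco*, the co-receptor of odorant receptors, had a log2 fold change of 0.02. No gene of these lists was called without the second CYC- samples. Of 60 annotated odorant receptor genes only these 19 passed the filter on low counts in the whole-head pools.

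Ciliary transport genes were called in both directions. The list of 23 measured genes was made after the values of *Oseg2* were known, and 2 of its members were called higher and 3 lower (21.7%, beside 3.74% of all tested genes). Of the 23, 19 had negative and 4 positive log2 fold changes. The median was -0.10, with -0.18 without the second and -0.02 without the first CYC- samples. *BBS1*, a cargo adaptor subunit, averaged 0.785 ± 0.133 against 1.25 ± 0.158 CPM (log2 fold change -0.66 ± 0.19 SE, adjusted p = 0.071), and *rempA*, a subunit of the returning transport complex, changed by -0.28 (adjusted p = 0.088). *Kap3* (0.42, adjusted p = 0.061) and *Klp68D* (0.16, adjusted p = 0.066), both subunits of the kinesin-II motor, rose. Of the list, *Oseg2* was the one gene called without the second CYC- samples.

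In the list of 36 photoreceptor genes 3 were higher and 2 lower (13.9%, beside 3.74% of all tested genes). *inaD*, the scaffold that holds the phototransduction proteins together, rose by 0.29 (871 ± 21.4 against 714 ± 62.2 CPM, adjusted p = 0.0053) and was called without the second CYC- samples (0.28, adjusted p = 0.080). *Rh3*, the ultraviolet opsin, averaged 978 ± 99.2 against 789 ± 85.4 CPM (log2 fold change 0.31 ± 0.08 SE, adjusted p = 0.053), and *Rh7*, an opsin found outside the main photoreceptors, 20.8 ± 3.97 against 13.8 ± 2.96 CPM (log2 fold change 0.59 ± 0.13 SE, adjusted p = 0.018). *Pdh* and *ninaB*, enzymes of the visual pigment's retinoid cycle, were lower by 0.38 and 0.23. The photoreceptor marker *ninaE* had a log2 fold change of 0.07, without a call.

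Immune and stress peptides were called only in the lower direction. Among 31 antimicrobial and induced peptides 3 were called (9.68%, beside 3.74% of all tested genes). The list's median log2 fold change was -0.33, and it was 0.12, -0.35 and -0.42 in lines 1, 2 and 3, so line 1 did not share its sign. *BomBc2*, of the Bomanin family of secreted peptides, averaged 128 ± 38.5 against 225 ± 37 CPM (log2 fold change -0.81 ± 0.22 SE, adjusted p = 0.057) and was called without the second CYC- samples (-1.11, adjusted p = 0.059) but not without the first (-0.55, adjusted p = 0.21). *BomT3* (-0.39, adjusted p = 0.065) and *Dso1*, a Daisho peptide (-0.57, adjusted p = 0.065), were called with all samples only. Of 45 recognition and stress genes *TotX*, *Tep4* (-0.29, adjusted p = 0.038) and *Spn42Dc*, a serpin, were called. *Spn42Dc* rested on 1 control line. Its level was 3.53, 3.0 and 3.95 CPM in CYC- lines 1, 2 and 3 and 25.4, 5.94 and 3.54 CPM in the control lines, and without control line 1 its log2 fold change was -0.45 (adjusted p = 0.80).

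Of 34 brain neuropeptide genes 2 were called, both lower (5.88%, beside 3.74% of all tested genes). Of 24 insulin, adipokinetic hormone and growth genes 1 was called higher and 2 lower (12.5%). *Ilp3*, an insulin-like peptide of the median neurosecretory cells, averaged 19.7 ± 2.75 against 29.7 ± 5.21 CPM (log2 fold change -0.60 ± 0.12 SE, adjusted p = 0.0090). It was not called without the second CYC- samples, and neither was any other gene called lower in either list. *ImpL2*, a secreted protein that binds such peptides, averaged 86.1 ± 5.39 against 65.1 ± 7.93 CPM (log2 fold change 0.40 ± 0.11 SE, adjusted p = 0.061) and was called without the second CYC- samples (0.59, adjusted p = 0.035) but not without the first (0.20, adjusted p = 0.34). *Pdf*, the clock neuropeptide, had a log2 fold change of -0.28 (adjusted p = 0.089), and *Pi3K68D*, a class II lipid kinase, -0.16 (adjusted p = 0.043). *Irk3*, an inwardly rectifying potassium channel, ran from 18.2 to 22 CPM in CYC- (median 21) and from 8.81 to 14.9 CPM in the control (median 12), with no overlap, in all lines (log2 fold change 0.78 ± 0.13 SE, adjusted p = 0.0021; without the second CYC- samples 0.77, adjusted p = 0.040). It was the single gene called of 21 voltage-gated and related channels.

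Some further genes were called in lists of structure and transport. *wb*, a laminin alpha chain, and *if*, an integrin alpha chain, were both lower and were called without the second CYC- samples as well. *wb* averaged 18.5 ± 1.99 against 31.2 ± 6.3 CPM (log2 fold change -0.75 ± 0.13 SE, adjusted p = 0.0030) and *if* 123.4 ± 5.57 against 145 ± 8.67 CPM (log2 fold change -0.23 ± 0.05 SE, adjusted p = 0.018). The gap junction gene *Inx3* was lower by 0.32 (adjusted p = 0.011), and *Cpr76Bc*, 1 of 29 measured cuticle protein genes, by 1.06 (adjusted p = 0.0069). *Cpr76Bc* was also called without the second CYC- samples (-1.22, adjusted p = 0.053). In the lipid list *Agpat1*, an acyltransferase of phospholipid synthesis, fell by 0.30, also called without the second CYC- samples (-0.28, adjusted p = 0.088), and the sterol-binding *Npc2h* and *Npc2b* by 0.65 and 0.28, while its 1 higher member, *EloB* (0.18), is elongin B, a ubiquitin ligase subunit. The transporters *bw*, which carries eye pigment precursors, and *MFS9* rose by 0.36 and 0.26. The neprilysin-like peptidase genes *Nepl19* and *Nepl20*, neighbors on chromosome 3R, fell by 0.84 and 0.58. They were the 2 called of 24 in a list drawn up after the values were seen (8.33%, beside 3.74% of all tested genes). Neither was called without the second CYC- samples. The list's median log2 fold change was 0.08 without the second and -0.42 without the first CYC- samples. *tra*, the splicing factor of female development, and *sxe2*, a lipase-like gene, rose by 0.27 and 0.56 (the latter 0.69, adjusted p = 0.051 without the second CYC- samples and 0.43, adjusted p = 0.11 without the first) in the list of yolk and female head fat genes.

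No member was called in 19 of the 44 lists. These include the 82 cytoplasmic ribosomal protein genes, 72 mitochondrial ribosomal protein genes, 70 genes of oxidative phosphorylation, 32 proteasome genes, 32 genes of biogenic amines, 24 of acetylcholine and GABA signaling, 29 synaptic genes, 50 learning genes, 54 Dpr and DIP adhesion genes, 22 glial and 28 muscle genes. Of the 82 cytoplasmic ribosomal protein genes 80 had negative log2 fold changes, with a median of -0.13 (-0.04 without the second and -0.22 without the first CYC- samples). Of the 70 oxidative phosphorylation genes 54 had positive ones, with a median of 0.05 that turned to -0.06 without the second CYC- samples. The 44 lists together hold 68 of the 346 called genes. Among 155 measured genes with symbols of noncoding RNA, 5 were called higher and 6 lower (7.1%, beside 3.74% of all tested genes). Of the 155, 107 had negative and 48 positive log2 fold changes, with a median of -0.13. *CR31032* (0.77, adjusted p = 0.0045) was called without the second CYC- samples too. *lncRNA:CR43242* (0.76, adjusted p = 0.051), *CR18217* (0.59, adjusted p = 0.031), *asRNA:CR42254* (0.61, adjusted p = 0.030) and *asRNA:CR45621* (0.58, adjusted p = 0.051) rose. *CR45557* (-1.01, adjusted p = 0.077), *lncRNA:CR44644* (-0.87, adjusted p = 0.080) and *CG43051* (-0.80, adjusted p = 0.015) fell. The last of these is noncoding by its symbol in the files and protein-coding in the annotation. Smaller drops were those of *asRNA:CR17025*, *lncRNA:CR13130* and *lncRNA:CR30055*, at -0.45, -0.37 and -0.22. Whether counting used strand is not stated, so antisense genes and the genes opposite them cannot be told apart.

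**Figure D4:**
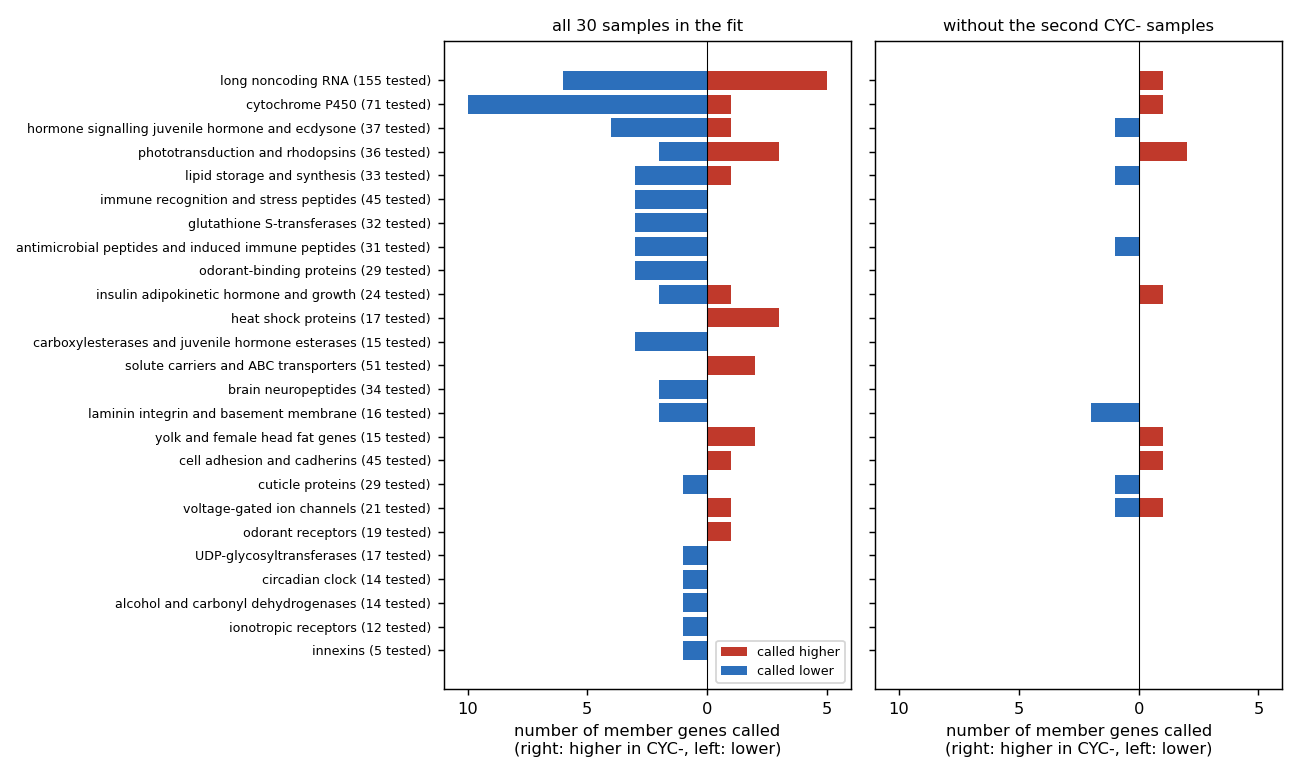
Number of members called higher (red, to the right) and lower (blue, to the left) in each list with at least 1 call, for all samples (left) and without the second CYC- samples (right). The P450 list has 10 members lower and 1 higher with all samples, and 0 lower and 1 higher without the second CYC- samples.

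Each CYC- line was then set against the 3 control lines in a fit with a mean for every line. Line 1 had 578 genes called (263 higher and 315 lower, 6.26%), line 2 had 433 (187 higher and 246 lower, 4.69%) and line 3 had 258 (115 higher and 143 lower, 2.79%). Of the 346 genes, 193, 180 and 118 were called in lines 1, 2 and 3, and 50 were called in all 3 lines, 111 in 2, 119 in 1 and 66 in none. In sign the lines were alike. Of the 346 genes, 345 had the same sign in all 3 lines, the exception being *GstO3* in line 1, though a gene called over the pooled lines had to move in most of them. The median log2 fold change of the lower genes was -0.41, -0.44 and -0.35 in lines 1, 2 and 3, and that of the higher genes 0.32, 0.34 and 0.27. The spread in these fits is that between the 2 samples of a line only, so a call describes that line.

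**Figure D5:**
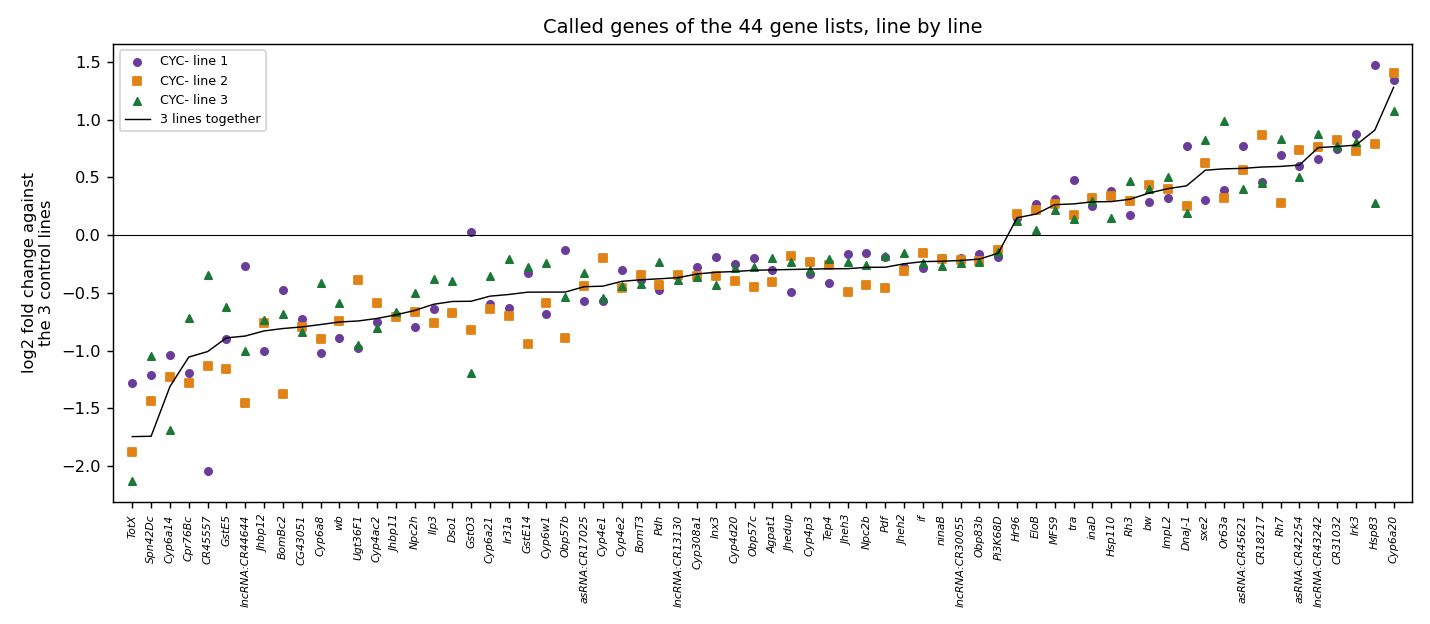
Log2 fold changes of the 68 called genes in the 44 lists for each CYC- line against the 3 control lines (symbols) and for the lines together (black line), in order of size. All 3 lines lie on the same side of 0 for every gene shown except *GstO3*, where line 1 lies at 0.03.

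Beyond the shared changes, 252 genes (2.73%) differed among the 3 CYC- lines, 30 of them among the 346. Among the control lines 201 genes differed in the same test, and 56 genes differed among both. *sordd2* stood at 59.1, 68.6 and 0.31 CPM in CYC- lines 1, 2 and 3 and 50.5, 66.3 and 52.1 CPM in the control lines (adjusted p among CYC- lines 1.27e-11). It was thus almost absent from CYC- line 3 alone, together with the abutting pseudogene *CR44383* (line means 1.59, 1.45 and 0.0775 CPM). *Cyp4d1* likewise had 23.8, 16.3 and 0.392 CPM in CYC- lines 1, 2 and 3 and 37.1, 35.5 and 29.4 CPM in the control lines (adjusted p 0.000604). *Hsc70-2* and the adjacent *CG31157* were lowest in CYC- line 2 and control line 1. *Hsc70-2* had 18.7, 5.23 and 27.7 CPM in CYC- lines 1, 2 and 3 and 1.48, 15.2 and 10.8 CPM in the control lines, and *CG31157* had 4.8, 1.08 and 6.77 CPM in CYC- lines 1, 2 and 3 and 0.188, 3.38 and 2.95 CPM in the control lines. The near-identical pair *HIP* and *HIP-R* went in opposite directions across lines, with 5.45, 8.05 and 23.2 CPM in CYC- lines 1, 2 and 3 and 11.1, 9.79 and 18.6 CPM in the control lines for *HIP* and 30.6, 24 and 4.84 CPM in CYC- lines 1, 2 and 3 and 20.5, 16.4 and 10.8 CPM in the control lines for *HIP-R*, and reads of such copies may be shared between them. *oc* (ocelliless), a homeobox gene of the head, was called higher over all lines (log2 fold change 0.59 ± 0.17 SE, adjusted p = 0.080) and was highest in line 3, with 45.9, 37.2 and 63 CPM in CYC- lines 1, 2 and 3 and 30.9, 33.2 and 33.1 CPM in the control lines. These 8 genes were chosen after their values were seen.

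The called genes were spread over the genome. They made up 4.6% of the tested genes on the X, 4.29% on 3L, 3.75% on 2R, 3.37% on 3R and 3.02% on 2L, and 0 of 82 on chromosome 4. Called genes with no tested gene between them and the same direction formed 15 runs of 31 genes, 13 of them lower and 2 higher. Besides the *Cp7Fa*, *Cp7Fb* and *otu* run, the longest lower runs by span held *NLaz*, a lipocalin (-0.58), with *robo2*, an axon guidance receptor (-0.29), and *CG42741* (-0.30) with *Fatp2*, a fatty acid transport gene (-0.25). Within 20 kb of each other lay 61 pairs of called genes in order along the arms, 46 with the same and 15 with opposite direction. A stretch on 3R with many calls ran from 25278427 to 25322757 and was found after the values were seen. It holds 18 tested genes over 44331 bases, of which 7 were called, *CG10514* higher (0.33) and *CG31300* (-0.48), *CG13658* (-0.56), *CG31288* (-0.48), *CG10550* (-0.25), *CG10560* (-0.48) and *CG10562* (-0.29) lower. In all, 14 of the 18 were negative, and *CG10560* averaged 96.7 ± 8.57 against 135 ± 2.11 CPM. None of the 7 was called without the second CYC- samples.

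The other selected lines give these levels a setting. The comparisons with the control share the control samples with the one described here, so levels are given side by side without a test. *otu* averaged 20.3 ± 28.6 CPM in CYC+, 14.7 ± 12.8 in BUT- and 23.7 ± 15.7 in BUT+. Its SD in CYC+ is larger than its mean there, so the CYC+ lines did not hold 1 level. *Cyp6a20* averaged 97.4 ± 65 CPM in CYC+, 139 ± 26.5 in BUT- and 98.5 ± 26.2 in BUT+, *Cyp6a14* 3.42 ± 1.96 CPM in CYC+, 5.66 ± 1.08 in BUT- and 5.62 ± 0.659 in BUT+, and *Hsp83* 674 ± 149 CPM in CYC+, 814 ± 117 in BUT- and 453 ± 88.3 in BUT+. *Oseg2* averaged 17.2 ± 9.68 CPM in CYC+, 10.5 ± 4.2 in BUT- and 10.3 ± 5.34 in BUT+, *Fkbp59* 83.5 ± 4.0 CPM in CYC+, 76.2 ± 6.12 in BUT- and 76.9 ± 3.25 in BUT+ and *Jhbp11* 41 ± 7.9 CPM in CYC+, 45.1 ± 6.5 in BUT- and 53 ± 6.48 in BUT+. Besides *otu*, the named genes flagged below as unequal among the CYC- lines were also looked up in CYC+. Means nearer the CYC- than the control mean were those of *f* (2.96 CPM), *CG30203* (11.7), *CG32706* (1.55), *CG8419* (21.1), *Kap3* (107), *Obp57b* (33.1), *Or63a* (5.39) and *lncRNA:CR44644* (0.81). *GstO3* (59.3 CPM) and *GstE14* (26.6) lay nearer the control mean. A difference from the control is thus not shown to be particular to CYC-. Beside these, the comparison of BUT- with BUT+ lines, bred for avoidance of and attraction to 2,3-butanedione, shares no sample with CYC- against control. There 61 genes were called (0.66%), and 12 were called in both comparisons, 3.47% of the CYC- list and 19.7% of the BUT list, 10 of them with the same sign. These 12 were *CG31809*, *Cp7Fa*, *Cyp6a21*, *Obp57b*, *spidey*, *CG31036*, *CG32750*, *mei-S332*, *CCT2*, *lncRNA:CR44644*, *CG10550* and *CG2680*. Over all 346 genes 240 (69.4%) had the same sign in both, against 62.6% of all tested genes.

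The filter asks for 15 samples, so a gene present in CYC- alone, with 6 samples, could not pass it. With no filter, 308 of 15895 genes with any read were called, and 79 of these had not passed the filter, 22 higher and 57 lower. For 25 of the 79 all 6 samples lay apart, 10 of them higher, and for 13 a single sample held over 50% of the CPM. The 79 were picked by their p in these same samples, and no share over the 15895 genes is given beside these counts. The antisense gene *asRNA:CR45600* averaged 3.46 CPM in CYC- and 0.0420 in the control, and *amos*, a proneural gene that starts olfactory sensilla in development, 0.902 against 0.0601 CPM. In the fit without a filter their adjusted p values were 0.0037 and 0.054. The level of *amos* was low, at 0.414 to 1.71 CPM in the CYC- samples and 0 to 0.111 CPM in the control samples. *Cp7Fc*, the third eggshell gene of the X group, averaged 0.247 against 1.03 CPM, with no overlap of samples (0.104 to 0.363 and 0.731 to 1.67 CPM). The chorion genes *Cp36* and *Cp38*, between *Cp7Fc* and *otu*, had adjusted p values of 0.28 and 0.33 without a filter, with *Cp36* at 0 to 0.180 CPM in CYC- and 0.233 to 2.38 CPM in the control.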

How the data were processed

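RNA of pools of 100 female heads was sequenced by the authors on an Illumina HiSeq4000, and adapters and low-quality bases were removed with Trim Galore! and Cutadapt before alignment with STAR to the release 6 genome. The deposited values are the authors' raw counts of reads per gene, not normalized. The counting tool and its use of strand and of reads matching several genes are not given in the sources used here. Depth ranged from 21194086 to 38621924 counts, and 1 CPM is about 21 reads in the smallest library.

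Genes at 1 CPM or more in at least 15 of 30 libraries (9240) entered a quasi-likelihood fit of 5 treatment means over 30 libraries in edgeR 4.0.16 (R 4.3.3) after TMM normalization. A call needed a p under 0.1 after Benjamini-Hochberg adjustment. Filter, pooling of lines and false discovery rate were set from the wording of the study's methods, and the number of genes kept need not equal the study's. Each SE is derived from the fit as the absolute log2 fold change over the root of the F statistic. CPM are TMM-normalized, and mean ± SD is over 3 line means. Line contrasts came from a fit of 15 line means. Gene identifiers were looked up in a release 6 annotation, which gave a position for 98.7% of genes.

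The comparison and its gene lists were chosen with earlier results of these data known, and 6 short lists (chaperonin, Hsp83 partners, ciliary transport, juvenile hormone, neprilysin-like and Npc2 genes) after the values were seen. Named are the called genes with line means apart, the 8 of each direction with the smallest p and the 6 with the largest change at 2 CPM or more, every called list member, and up to 6 runs of neighbors. Of these, 1 item is not reported here. Others were named after their values were seen, and those given with values first are the largest changes and list members. Alternatives were DESeq2 1.42.0, voom in limma 3.58.1 with lines as random blocks, other normalization, filter and threshold, only the 12 libraries, lines summed, replicate blocks, single sample numbers, and each line left out. The fits without the first or second CYC- samples were added after seeing the data. The fit was tested on simulated data. Those data held no line effects and no shift of the second CYC- samples, so that test does not bear on either. No set test was run.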

Additional observations from a re-analysis of the deposited data

Results flagged for a closer look

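Among the samples of a group, 11 of 208 groups checked (104 genes in both groups) held 1 sample far from the other 5 by Dixon's criterion, which chance meets in about 1 in 20 groups. Control line 1 held 4 of them. Its second sample was high in *CCT3* (59.6 CPM, others 41.7 to 47.6) and *CCT7* (57.5, others 43.2 to 45) and low in *asRNA:CR17025* (11.2, others 15 to 17.3), and its first sample was high in *TotX* (25.6, others 10.9 to 16). Both chaperonin genes were called higher in CYC-, so this control sample lay on the CYC- side. In control line 2, *CG32706* was at 0.345 CPM in the first sample (others 0.605 to 0.693), and *Jheh2* at 269 (others 218 to 235) and *Obp83b* at 232 (others 184 to 195) in the second. In control line 3 the second sample held 5.19 CPM of *CG3777* (others 2.60 to 3.45) and 93.5 CPM of *Npc2h* (others 119 to 134). In CYC-, *Hr96* was at 39.5 CPM in the first sample of line 2 (others 36.2 to 37.4), and *Nepl20* at 3.82 CPM in the first sample of line 1 (others 1.98 to 2.65).

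The size of the difference from the control was unequal among the CYC- lines for 11 of the 104 named genes, by edgeR's quasi-likelihood F-test with Benjamini-Hochberg adjustment. Over all 9240 tested genes 252 (2.73%) differed among the CYC- lines and 201 among the control lines. Of the 11, *CG8419* differed among the control lines too (adjusted p = 0.0052 in that test). The adjusted p was 0.000287 for *GstO3*, 0.000887 for *CG30203*, 0.00273 for *otu*, 0.00364 for *Kap3*, 0.00460 for *CG8419*, 0.00707 for *Obp57b*, 0.0128 for *GstE14*, 0.0183 for *CG32706*, 0.058 for *lncRNA:CR44644*, 0.0662 for *Or63a* and 0.0944 for *f*. The line log2 fold changes of *CG30203* were 0.73, 1.13 and 0.30, those of *Kap3* 0.12, 0.72 and 0.37 and those of *CG32706* 0.83, 1.76 and 0.87.

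Outside the tested genes, *asRNA:CR45600* averaged 3.46 CPM and *amos* 0.902 CPM in CYC-, both above their control levels. Both are among the 79 genes picked by their p in these same samples.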

How the results depend on the processing

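Against 346 genes called (132 higher and 214 lower), DESeq2 called 481 (184 and 297), relative log expression size factors 338 (124 and 214), no filter 308 (112 and 196), and 1 CPM in all 30 libraries 330 (127 and 203). An adjusted p under 0.05 left 161 (51 and 110), the 12 compared libraries alone 192 (60 and 132), summed libraries of a line 42 (11 and 31), and voom with line as a random block 195 (58 and 137). Between first samples only 3 genes were called (0 and 3), and between second samples 524 (127 and 397). Without the second CYC- samples 64 were called (29 and 35), and without the first 1034 (428 and 606). Leaving out a line gave 155 to 275 genes, 51 to 113 higher and 102 to 162 lower, with 155 without CYC- line 1 or line 2, 275 without CYC- line 3, and 193, 211 and 236 without control lines 1, 2 and 3.

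With the sample number as a replicate block 511 genes were called (177 and 334), and 898, 658 and 457 in lines 1, 2 and 3. With line and sample number as a block, 553 were called (193 and 360). Deviations of CYC- and control samples with the same line and sample number had correlations across genes of 0.258, -0.102, -0.083, 0.285, 0.023 and 0.267, so the numbers were not taken as pairs. In all 6 lines the second sample lay higher than the first on principal component 1 and lower in head fat body markers. At an adjusted p under 0.05, 355, 303 and 177 genes were called in lines 1, 2 and 3.

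None of the 104 named genes changed sign in any of the 20 alternatives. Of the 104, 2 were called in every alternative, 28 without the second CYC- samples and 22 with lines summed. Where a call was lost with fewer samples the cause was not tested. The median log2 fold change of all genes stayed between -0.0151 and 0.0155. Near 1 CPM, depth limits precision, and 3 lines per group limit what the p-values say about selection.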
